A study of Mus musculus with 6 samples.

Results

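The ciliary transition zone is the stretch at the base of the primary cilium that lies between the basal body and the axoneme. Its proteins link the microtubules to the membrane and form a gate that decides which membrane and soluble proteins enter or stay in the cilium. In human patients, loss of these genes is known from Meckel and Joubert syndromes, and in mouse it is known to disturb Hedgehog signalling, which runs through the cilium. The genes described here belong to the complex named after Meckel syndrome. They are the 3 tectonics Tctn1, Tctn2 and Tctn3, the membrane proteins Tmem231, Tmem67, Tmem216 and Tmem107, the B9-domain proteins Mks1 and B9d1, and the C2-domain scaffold Cc2d2a. These 10 genes were chosen by name, as a family, after the Dox and vehicle levels of the same libraries were known, with Tctn2 among the larger rises. Their changes are therefore a description, and the adjusted p-values given below come from the fit over all genes and are no independent support for the family. The count table held rows for 9 of the 10 genes among 29493 genes in all. Mks1 is not analysed here beyond its promoter.

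The libraries come from HT22, an immortalised line derived from mouse hippocampal neurons, in the stable line HT22-TR/TO-V5Klf13-1. All 6 libraries carry its transgene for V5-tagged KLF13 under the tet repressor. KLF13 belongs to the Krüppel-like family of DNA-binding proteins. The Dox group (n = 3) received doxycycline at 1 µg/ml for 8 hours and the vehicle group (n = 3) received vehicle for the same time. Total counts per library were 41595045 to 48171814 in the Dox group and 38566798 to 52930384 in the vehicle group. The labels give 1 stable line and do not say whether replicates were separate cultures, so the spread between libraries may be technical. No library had doxycycline without the transgene, so effects of the drug and of KLF13 cannot be told apart. Klf13 was higher in every Dox library (184 to 205 CPM) than in the vehicle libraries (36.1 to 39.1 CPM), and its counts do not separate transgene from endogenous reads. CPM, counts scaled to the effective library size, are used throughout. Of 18067 genes tested, 25.9% were called higher and 28.8% lower with Dox (54.7% in either direction, edgeR quasi-likelihood test, adjusted p under 0.05). The balance depended on scaling: 47.4% of called genes were higher, against 58.4% under upper-quartile scaling.

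The line was checked against markers of hippocampal neurons and of other cells. Of 18 neuronal markers 12 had a row, and 8 of these 12 stayed under 1 CPM in every library. Syp and Map2, a synaptic and a dendritic gene named after their values were seen, were among these 8, while Tubb3, neuronal beta-tubulin, was the most abundant (14.7 CPM with Dox, 60.7 CPM with vehicle). Dlg4, also a synaptic gene, had 8.34 CPM with Dox and 19.0 CPM with vehicle, and Eno2 had 2.64 and 4.80 CPM. Syt1, named after its values were seen, was also not among these 8 and rose with Dox (log2 fold change 1.11 ± 0.26 SE). Fibroblast markers summed to 8396 to 8779 CPM in Dox libraries and to 10304 to 10844 CPM in vehicle libraries, mostly from collagen genes such as Col1a2. Among lists for other cell types, the most abundant marker was Slc1a3 for astrocytes (45.7 CPM with Dox, 38.4 CPM with vehicle), Tmem119 for microglia (19.9 CPM with Dox, 30.4 CPM with vehicle) and Cdh5 for endothelium (3.19 CPM with Dox, 2.60 CPM with vehicle). The rest of these lists was low: 4 of 5 astrocyte, 4 of 5 microglia and 2 of 4 endothelial markers with a row stayed under 1 CPM in every library. The part of these markers in the results below was not tested.

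Promoter sequences are shown first, because RFX factors, which bind the X-box, are known to act on many genes of the cilium, and KLF factors are known to bind GC-rich boxes. The windows run from 250 bases before to 50 bases after each annotated start (RefSeq, GRCm38.p6), and 9 of the 10 genes had at least 1 window. The Tctn2 window is printed to 30 bases after the start, at chr5:124598499-124598778 on the plus strand. Capitals mark an X-box core, spelled GTTNCCNNGG on either strand, where N is any base, a spelling chosen after the promoters had been read.
Tctn2: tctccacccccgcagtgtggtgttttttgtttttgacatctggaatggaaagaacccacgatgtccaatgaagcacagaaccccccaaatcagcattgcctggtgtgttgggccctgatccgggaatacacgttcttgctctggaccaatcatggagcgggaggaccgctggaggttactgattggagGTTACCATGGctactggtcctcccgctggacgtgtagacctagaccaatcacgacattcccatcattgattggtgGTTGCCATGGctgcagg

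The Tctn2 window holds 2 such cores, the first from -62 to -53 and the second from 14 to 23, counted from the start with no position 0. For the other genes, 30 bases around the match nearest the start are printed 5′ to 3′ on the strand of the gene, so that the shared letters can be compared. Capitals mark the X-box core in Tctn1 (chr5:122264411-122264440, minus strand), Tmem231 (chr8:111933783-111933812, minus), Tmem216 (chr19:10555725-10555754, minus), Tmem107 (chr11:69070787-69070816, plus), Mks1 (chr11:87853185-87853214, plus) and Cc2d2a (chr5:43662346-43662375, plus). In Tctn1 and Mks1 the capitals cover 2 overlapping cores on opposite strands. Tctn3 (chr19:40612354-40612383, minus) and B9d1 (chr11:61505152-61505181, plus) have no core, and their capitals mark a short X-box, GTTGCC on either strand. The window at the other annotated start of Tmem216 holds neither and is not printed.
Tctn1: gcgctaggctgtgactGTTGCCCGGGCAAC
Tctn3: aggctcccagcgGTTGCCaggtaacgggaa
Tmem231: cccgccgtcgGTTGCCGTGGagactcggcg
Tmem216: agtgtacgcaGTTTCCATGGggactgaaca
Tmem107: tgcggacgcaGTTACCATGGcagccgggcg
Mks1: gtctccGTTGCCAGGGGAACgaggcaccac
B9d1: cgagagcctcctGGCAACagcgcgcggcct
Cc2d2a: tagtgaccttCCCTGGGAACtggttgctaa

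An X-box core was found in 7 of the 9 genes with a window (7 of their 10 windows), and in 6.27% of the 32851 mouse promoter windows of the same length. Because this spelling was chosen after the family's promoters had been read, nothing is read from the difference. The short X-box GTTGCC, which overlaps many cores, was found in 6 of the 9 genes and in 12.5% of all windows. The RFX X-box consensus is a longer spelling, GTNRCC and RGYAAC with a gap of variable length between them (R is A or G, Y is C or T). It matched in Tctn1, Tctn2 and Tctn3 and in 1.53% of all windows. The GC box GGGCGG was found in Tctn1, Tmem216, Tmem107 and B9d1, with 4 matches in Tctn1, and in 35.7% of all windows. The shorter CACCC box was found in 7 of the 9 genes, and in 57.5% of all windows, on either strand. All windows include those of genes not tested here, so these shares are no like background for the measured genes. Of 10219 tested genes with a window, 6783 had a GC box, 6735 a CACCC box, 1489 a short X-box and 896 an X-box core. Tctn2, Tctn3, Tmem231 and Cc2d2a, among the measured genes, had no GC box in this window. A match is a run of letters and not a measured binding site.

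**Figure D1:**
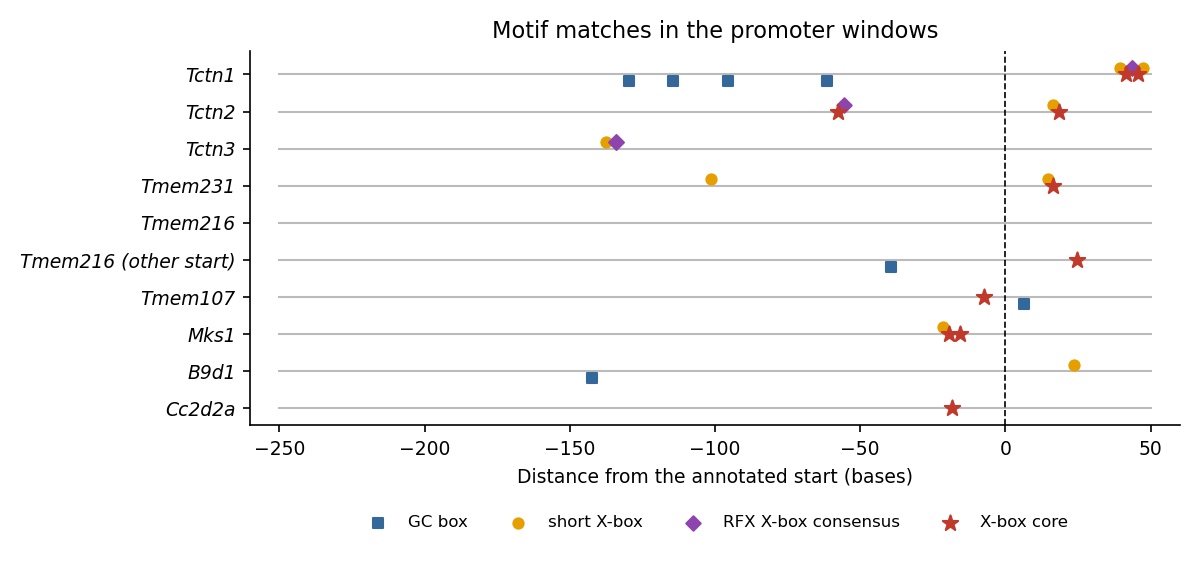
Position of matches to 4 motifs (symbols at the centre of each match, CACCC not drawn) in the promoter windows (grey lines) of 9 genes, on an axis of bases from the annotated start (dashed line). Tmem216 has 2 annotated starts, and the X-box core lies by the second. X-box cores in 7 genes lie between -62 and 50, and GC boxes appear in 4 genes.

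All 9 measured genes rose with Dox. Each passed the test over all genes, which called 25.9% of the 18067 tested genes higher, and in each the 3 Dox libraries lay above the 3 vehicle libraries, as they did for 31.8% of tested genes in that direction. The median log2 fold change of the 9 genes was 0.76, against 0.018 over all tested genes. That median is the value of Tmem216, the least certain of the 9 (below). Because the contrast was known when the family was chosen, nothing is read from these shares. In 4 of the 9 genes, Tctn2, Tmem231, Tctn3 and B9d1, the rise was at least 2-fold, a size that 1.74% of tested genes reached among those called higher. Another 4, Tmem67, Tmem107, Tctn1 and Cc2d2a, rose by less than 1.5-fold. In bulk RNA, a change in the number of cells of a kind and a change in RNA per cell cannot be told apart.

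**Figure D2:**
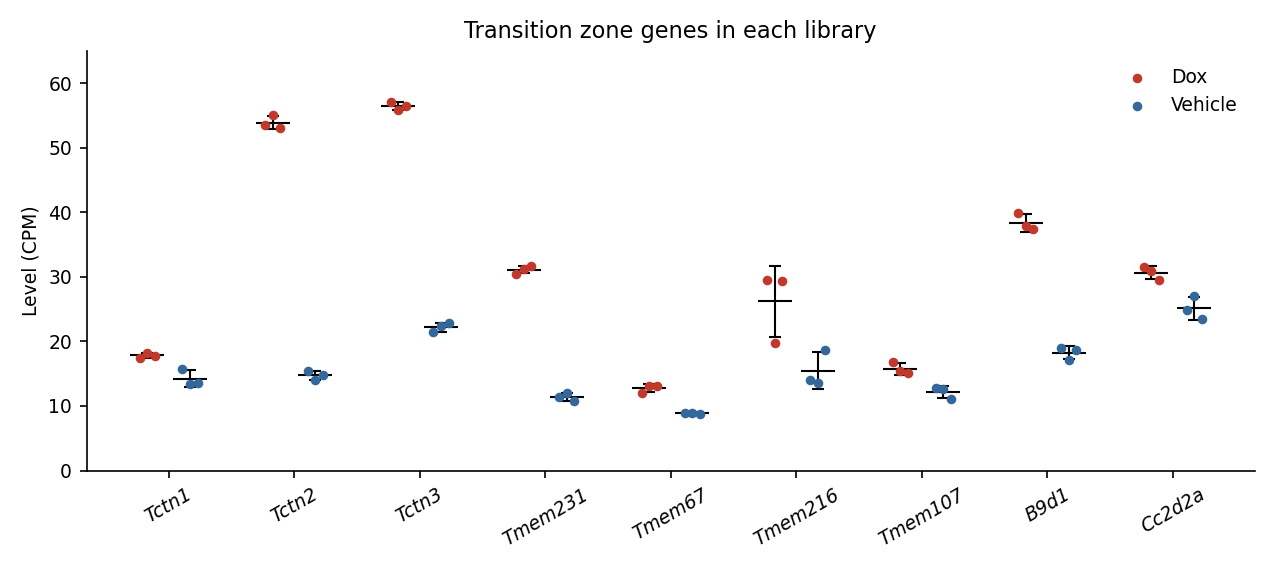
Level of the 9 measured transition zone genes in each library (CPM, y axis, linear from 0), with 3 Dox points and 3 vehicle points per gene, bars at the mean and error bars of 1 SD. The Dox points lie above the vehicle points in every gene, by the narrowest margin in Tmem216 (19.8 against 18.7 CPM).

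Among the tectonics, which are secreted or membrane-anchored glycoproteins of the transition zone, Tctn2 and Tctn3 rose more than Tctn1 (a difference that was not tested). Tctn2 (ENSMUSG00000029386, chromosome 5, 124598749 to 124627738, plus strand, GRCm38) had 53.4, 55.0 and 53.1 CPM in Dox libraries, against 15.4, 14.0 and 14.8 CPM in vehicle libraries. No Dox library came near the vehicle range, and the log2 fold change was 1.87 ± 0.047 (SE), a 3.65-fold rise with adjusted p = 1.7e-06 by edgeR. It was the 31st largest log2 fold change among the 4687 genes called higher. Tctn3 (chromosome 19, 40596446 to 40612233, minus strand) had 57.1, 55.8 and 56.5 CPM in Dox libraries, against 21.4, 22.3 and 22.8 CPM in vehicle libraries. The groups were far apart compared with the spread within each, and the rise was 2.55-fold (log2 fold change 1.35 ± 0.037 SE, adjusted p = 1.8e-06, edgeR). Tctn1 (chromosome 5, 122237848 to 122264460, minus strand), known in mouse for its part in Hedgehog signalling, had 17.5, 18.3 and 17.8 CPM in Dox libraries, against 15.7, 13.5 and 13.5 CPM in vehicle libraries. The groups were separate but close, with a 1.25-fold rise (log2 fold change 0.32 ± 0.072 SE, adjusted p = 0.0086, edgeR). All 3 tectonic promoter windows hold an X-box consensus match, and its part in the size of these changes was not tested.

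The membrane proteins of the complex rose by different amounts. Tmem231 (chromosome 8, 111912011 to 111933881, minus strand), which is needed to place other members at the transition zone in mouse cells, had 30.5, 31.2 and 31.7 CPM in Dox libraries, against 11.42, 12.007 and 10.84 CPM in vehicle libraries. Its 2.73-fold rise (log2 fold change 1.45 ± 0.052 SE, adjusted p = 3.9e-06, edgeR) was exceeded in the family by that of Tctn2 alone. Tmem67 (chromosome 4, 12039355 to 12090020, minus strand) encodes meckelin, a receptor-like membrane protein, and had 12.1, 13.1 and 13.1 CPM in Dox libraries, against 8.93, 8.98 and 8.72 CPM in vehicle libraries. The vehicle libraries were nearly equal, and the log2 fold change was 0.52 ± 0.053 (SE, adjusted p = 2.3e-04, edgeR). Tmem107 (chromosome 11, 69070806 to 69073293, plus strand), which takes part in anchoring the complex, had 16.8, 15.4 and 15.0 CPM in Dox libraries, against 12.8, 12.6 and 11.1 CPM in vehicle libraries. Its groups were separate with a small gap, and the log2 fold change was 0.37 ± 0.077 (SE, adjusted p = 0.0062, edgeR).

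Tmem216 (chromosome 19, 10533865 to 10556238, minus strand), another membrane protein of the complex, was the least certain of the 9. It had 29.5, 19.8 and 29.3 CPM in Dox libraries, against 14.0, 13.6 and 18.7 CPM in vehicle libraries. Dox replicate 2 was low and vehicle replicate 3 high within their groups, and these 2 values nearly met. The log2 fold change was 0.76 ± 0.19 (SE, adjusted p = 0.016, edgeR), with an error larger than in any other member. The call was lost without Dox replicate 1 or 3 (adjusted p = 0.052 and 0.053) and without vehicle replicate 1 or 2 (0.055 and 0.057), where the log2 fold change was 0.67 to 0.69. Without Dox replicate 2 or vehicle replicate 3 the log2 fold change was 0.93 and 0.92.

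Of the family's B9- and C2-domain proteins, which sit on the cytoplasmic side of the gate, B9d1 and Cc2d2a were measured. B9d2, a B9-domain gene outside the family and named after its values were seen, did not rise with them. It had 15.9 ± 1.68 CPM with Dox and 15.1 ± 0.378 CPM with vehicle (SD, n = 3 each). Its log2 fold change was 0.076 ± 0.081 (SE, adjusted p = 0.47, edgeR), and its groups overlapped. B9d1 (chromosome 11, 61505144 to 61512931, plus strand) had 39.9, 37.8 and 37.4 CPM in Dox libraries, against 19.0, 17.1 and 18.7 CPM in vehicle libraries. The groups were well apart, with a log2 fold change of 1.07 ± 0.055 (SE, adjusted p = 1.2e-05, edgeR). Cc2d2a (chromosome 5, 43662346 to 43740972, plus strand), a large scaffold protein, had 31.5, 30.9 and 29.5 CPM in Dox libraries, against 24.8, 27.0 and 23.5 CPM in vehicle libraries. Its rise of 1.22-fold (log2 fold change 0.29 ± 0.062 SE, adjusted p = 0.0076, edgeR) was the smallest of the family. The authors' deposited table also marks all 9 genes as called, and its log2 fold changes run from 0.29 for Cc2d2a to 1.85 for Tctn2.

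The genes differed in level as well as in change. Per kilobase of exonic length, B9d1 was highest in both groups, at 24.1 ± 0.834 CPM per kb with Dox and 11.5 ± 0.633 with vehicle (SD, n = 3 each), and Tmem67 lowest, at 1.65 ± 0.0759 and 1.15 ± 0.0181. Tctn3 had 17.3 ± 0.191 CPM per kb with Dox and 6.77 ± 0.215 with vehicle. Tctn2 had 6.47 ± 0.125 CPM per kb with Dox and 1.77 ± 0.0847 with vehicle, and stood higher in the order with Dox. The order with Dox was B9d1, Tctn3, Tmem107, Tmem216, Tctn2, Tmem231, Cc2d2a, Tctn1 and Tmem67. Neighbours in it were apart in every library except Tmem216 and Tctn2. With vehicle the order was B9d1, Tmem107, Tctn3, Tmem216, Cc2d2a, Tmem231, Tctn2, Tctn1 and Tmem67, where only the ranges of Tctn2 and Tctn1 overlapped among neighbours. The order depends on the length used. Over the length of the longest annotated transcript, coding ones first, Tmem216 had rank 2 in both groups (23.8 CPM per kb with Dox, 14.0 with vehicle) and Tctn1 rank 9 with Dox.

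Neighbouring genes were examined because reads from overlapping exons, or a shared start region, could move counts together. Tctn1, Tmem67 and Tmem216 share exonic bases with a gene on the other strand, and the strand setting of the counts is not given in the sources used here. For Tctn1 the gene in the table is Hvcn1, a proton channel, which had 2 to 7 counts in Dox libraries and 0 to 7 in vehicle libraries. For Tmem67 it is Rbm12b2, an RNA-binding protein gene sharing 289 exonic bases, whose start lies 581 bases away. Rbm12b2 averaged 36.2 ± 2.05 CPM with Dox and 36.0 ± 1.35 CPM with vehicle (SD, n = 3 each, log2 fold change 0.0070 ± 0.054 SE, adjusted p = 0.93, edgeR). Tmem67 also shares 131 bases with the antisense gene Gm11842, which had 0 to 5 counts per library. Tmem216 shares 169 bases with Cpsf7, a cleavage factor subunit, which fell by 0.42 ± 0.036 (SE) on the log2 scale (91.5 ± 1.10 CPM with Dox, 123 ± 5.19 CPM with vehicle, SD, n = 3 each), opposite to Tmem216. Tctn3 and Entpd1, an ectonucleotidase gene, start 133 bases apart on opposite strands, and Entpd1 had at most 6 counts in any library of either group. The antisense gene B9d1os starts 85 bases from B9d1 and had 8 to 19 counts in Dox libraries and 17 to 25 in vehicle libraries, without passing the test (adjusted p = 0.26, edgeR).

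Other genes of the transition zone, from a separate list of 18, did not move one way. Of 17 tested, 6 rose, 6 fell and 5 did not pass, beside 25.9% called higher and 28.8% lower over all genes, and the median log2 fold change was 0.11. Nphp4, a nephronophthisis protein of the zone, rose 2.56-fold, with 22.7 ± 0.981 CPM with Dox and 8.84 ± 0.548 CPM with vehicle (SD, n = 3 each). Tmem138, a membrane protein of the cilium base, rose by 0.67 ± 0.037 (SE) on the log2 scale (41.4 ± 0.580 CPM with Dox, 26.1 ± 0.698 CPM with vehicle), and shares exonic bases with a gene on the other strand. Nek8, a kinase of the neighbouring inversin compartment, had 3.14 ± 0.176 CPM with Dox and 8.03 ± 0.764 CPM with vehicle, a log2 fold change of -1.36 ± 0.090 (SE). Genes named after their values were seen were Cep290 (log2 fold change 0.63 ± 0.063 SE), which was higher, and Iqcb1 (-1.50 ± 0.11) and Tmem237 (-0.80 ± 0.058), both lower. The number of falls was 3 under upper-quartile scaling, so the split of this list depends on scaling.

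**Figure D3:**
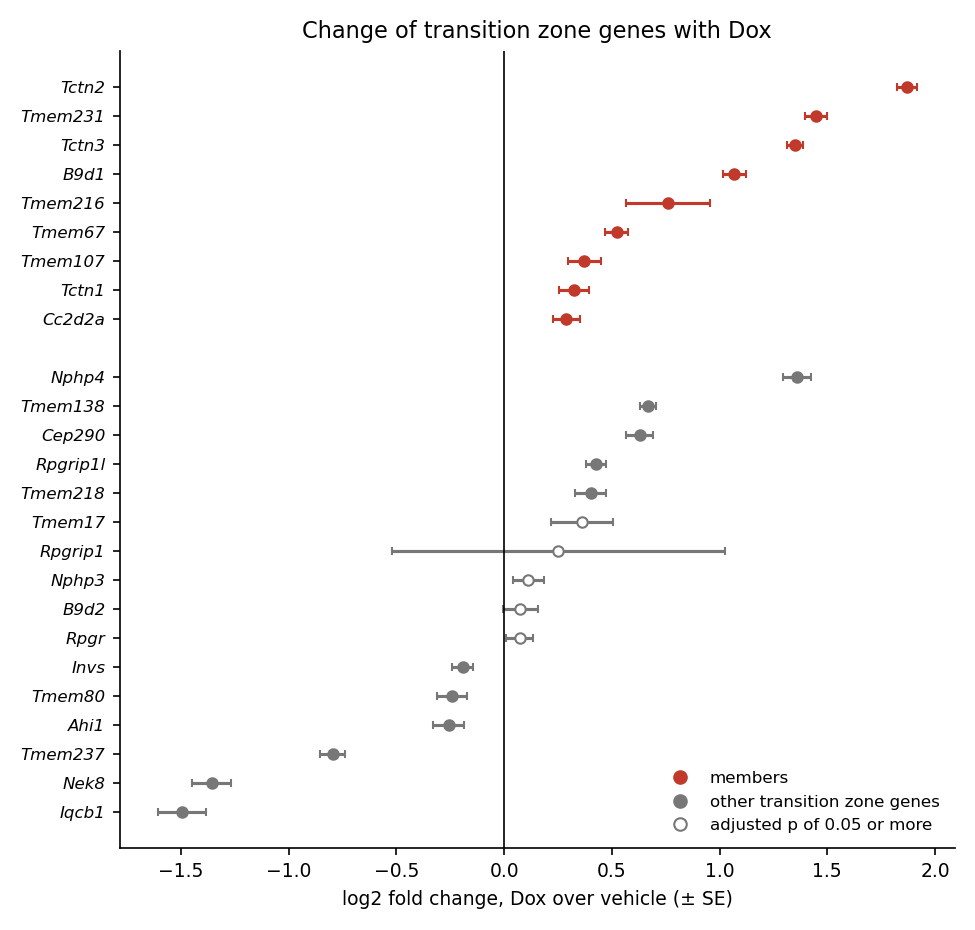
Log2 fold change of Dox over vehicle (x axis, ± SE) for the 9 measured members (red, upper block) and 16 of the other transition zone genes (grey, lower block), each block sorted by value. Filled points passed the test at an adjusted p under 0.05. The members all lie above 0, from 0.29 to 1.87, while the other genes drawn run from -1.50 to 1.36.

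Lists for the rest of the cilium held more rises than falls among transport genes and more falls than rises among ciliary membrane genes, a contrast that was not tested. Over all tested genes 25.9% were called higher and 28.8% lower. Of 41 tested genes of intraflagellar transport, the particle trains that carry cargo along the axoneme, and of the BBSome coat, 24 rose and 12 fell, while 5 missed the threshold (58.5% and 29.3%, median log2 fold change 0.31), so the share of falls was near that over all genes. Examples were Ift80 (136 ± 2.17 CPM with Dox, 62.2 ± 4.35 CPM with vehicle), Ift74 (108 ± 0.457 and 63.0 ± 2.44 CPM) and Lztfl1, a regulator of BBSome traffic (56.8 ± 3.19 and 23.7 ± 0.546 CPM, SD, n = 3 each), which shares exonic bases with Gm17200 on the other strand. Of 16 basal body and distal appendage genes, 8 rose and 4 fell, while 4 missed the threshold (median 0.18), with the falls again near the share over all genes. Cep89 rose by 1.00 ± 0.036, Cby1 by 0.85 ± 0.042 and Cep120 by 0.56 ± 0.029 (SE) on the log2 scale. Of 14 tested genes for ciliary membrane proteins and their carriers, 3 rose (21.4%) and 8 fell (57.1%), while 3 missed the threshold (median -0.23), and here the share of rises was near that over all genes. Gpr161, a ciliary receptor that restrains Hedgehog signalling, fell 3.86-fold, with 12.6 ± 0.742 CPM with Dox and 48.8 ± 1.29 CPM with vehicle (SD, n = 3 each). Pde6d and Arl3, which deliver lipid-modified proteins to the cilium, had log2 fold changes of -1.31 ± 0.055 and -0.69 ± 0.042 (SE).

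Of 12 tested Hedgehog pathway genes, 1 rose and 9 fell, while 2 missed the threshold (median log2 fold change -0.41), beside 25.9% called higher and 28.8% lower over all genes. In this list 2 rose under upper-quartile scaling and with offsets for GC content or transcript length. The falls include Gli1, named after its values were seen, with 0 to 4 counts in Dox libraries and 10 to 19 in vehicle libraries. Gli1 passed the filter on low counts only through the vehicle group, so nothing is read from its fall. With a filter at a mean of 5 CPM, 7 genes of the list fell. Gpr161, above, is also in this list. Cdon, a Hedgehog co-receptor, had 38.5 ± 0.230 CPM with Dox and 65.4 ± 3.35 CPM with vehicle, and Smo, the transducer that enters the cilium, had 114 ± 2.66 CPM with Dox and 149 ± 1.82 CPM with vehicle (SD, n = 3 each). Both passed the test (adjusted p = 1.8e-05 and 4.1e-05, edgeR). Of 14 genes of cilium disassembly and suppression, 6 rose and 6 fell (42.9% each), while 2 missed the threshold (median 0.11), beside the same shares over all genes. Hdac6, a tubulin deacetylase, and Kif2a, a microtubule depolymerase, fell by 1.91 ± 0.064 and 1.25 ± 0.040, while Cep97, a cap protein of the mother centriole, rose by 0.89 ± 0.052 (SE) on the log2 scale. Kif2a shares exonic bases with a gene on the other strand.

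**Figure D4:**
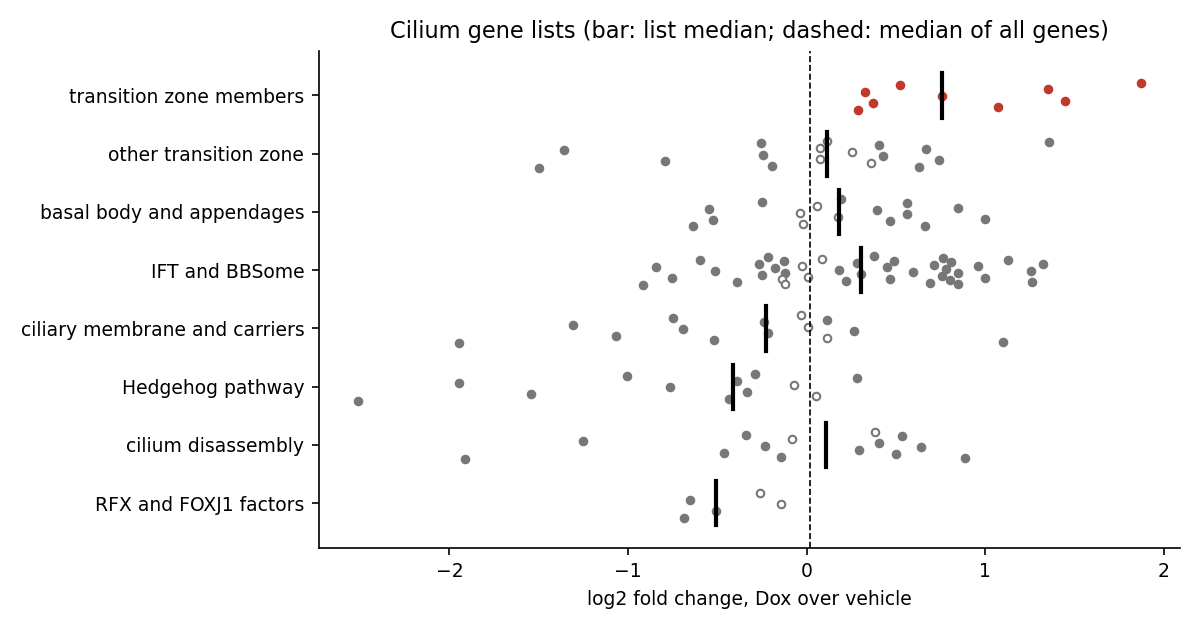
Log2 fold change of Dox over vehicle (x axis) for each tested gene of 8 cilium lists (rows), with filled points past an adjusted p of 0.05, black bars at list medians and a dashed line at the median of all tested genes (0.018). Members of the transition zone family have a median of 0.76, while the Hedgehog list has a median of -0.41 and the ciliary membrane list of -0.23.

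Of 5 tested RFX genes, none rose, 3 fell and 2 did not pass, beside 25.9% called higher and 28.8% lower over all genes. Rfx7 had 82.8 ± 2.96 CPM with Dox and 133 ± 6.51 CPM with vehicle, and Rfx2 had 4.88 ± 0.178 CPM with Dox and 7.68 ± 0.882 CPM with vehicle (SD, n = 3 each, adjusted p = 3.7e-05 and 0.0012, edgeR). Rfx5 fell by 0.51 ± 0.17 (SE) on the log2 scale with adjusted p = 0.042, a call lost in 9 of 16 alternatives, among them those without Dox replicate 2 or 3 and without vehicle replicate 2 or 3. Rfx1 and Rfx3, named after their values were seen, had log2 fold changes of -0.14 ± 0.069 and -0.26 ± 0.12 (SE) and did not pass (adjusted p = 0.13 and 0.11). Rfx7 and Rfx5 share exonic bases with genes on the other strand. Foxj1, the master regulator of motile cilia, was not tested, at 0.188, 0.365 and 0.279 CPM in Dox libraries, against 0, 0.192 and 0.212 CPM in vehicle libraries.

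Markers of multiciliated and ependymal cells, whose cilia also have transition zones, were mostly too low to test. Of 18 listed, 12 had a row, 10 of these stayed under 1 CPM in every library and 4 were tested. Of these 4, 3 rose and none fell, beside 25.9% called higher and 28.8% lower over all genes. With 4 genes tested, nothing is read from this count. The summed level of the 12 markers with a row was 18.0 to 19.7 CPM in Dox libraries, against 6.68 to 7.89 CPM in vehicle libraries. Most of it was Ccdc39, a ruler protein of motile axonemes, with 14.3 ± 0.437 CPM with Dox and 4.64 ± 0.593 CPM with vehicle (SD, n = 3 each), which shares exonic bases with Ttc14. Spef2 (2.80 ± 0.321 CPM with Dox, 1.25 ± 0.219 CPM with vehicle) and Ccdc40 (0.408 ± 0.0957 and 0.107 ± 0.0335 CPM) also rose. Ccdc40 had 13 to 23 counts in Dox libraries and 3 to 6 in vehicle libraries. It passed the filter on low counts only through the Dox group, so nothing is read from its rise. Spag6, the other tested marker, had 0.495 ± 0.264 CPM with Dox and 0.718 ± 0.0854 CPM with vehicle and did not pass (log2 fold change -0.55 ± 0.36 SE, adjusted p = 0.24, edgeR). Among untested markers, named after their values were seen, Dnaic2 and Rsph9 had lower means with Dox (0.0203 and 0.113 CPM) than with vehicle (0.116 and 0.126 CPM), and Cfap126 had 0 counts in every Dox library. The part of these cells in the result was not tested.

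The relation of promoter letters to change was then described over all 10219 tested genes with a promoter window. With an X-box core 30.5% of 896 genes were called higher, against 30.3% of 9323 genes without one. With the RFX X-box consensus 41.5% of 188 genes were called higher, against 30.1% of 10031 without. With the short X-box GTTGCC the shares were 31.0% of 1489 genes, against 30.2% of 8730. Counting only calls of at least 2-fold higher, the shares were 2.90% with an X-box core, against 1.83% without, and 3.16% with the short X-box, against 1.72%. With the RFX X-box consensus the share was 6.38% (12 genes, Tctn2 and Tctn3 among them), against 1.84%. The shares at least 2-fold lower were 9.49% with an X-box core, against 9.29%, and 8.26% with the short X-box, against 9.48%. With the RFX X-box consensus 6.91% (13 genes) were at least 2-fold lower, against 9.35%. With the GC box GGGCGG 41.4% of 6783 genes were called lower, against 20.1% of 3436 genes without one, while 26.5% with it, against 37.8% without, were called higher and 1.42%, against 2.94%, at least 2-fold higher. With the CACCC box 37.6% of 6735 genes were called lower, against 27.8% of 3484, and 1.86%, against 2.07%, were called at least 2-fold higher. Neither set was matched for level or base composition, these shares were given no test, and they include the genes of the family. In the family, Tctn1, Tmem216, Tmem107 and B9d1 rose with a GC box in their window.

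The genes whose libraries were most like Tctn2 were Dgat2, Enpp3, Mab21l1, Ccdc39 and Slc15a2. Likeness was the root mean square distance of log2(CPM + 0.5) centred on the vehicle mean, over 6 libraries, which ran from 0.14 for Dgat2 to 0.28 for Slc15a2. Dgat2, a triglyceride synthesis enzyme, had 50.6 ± 1.35 CPM with Dox and 15.6 ± 0.669 CPM with vehicle, and Mab21l1, a developmental gene, had 27.8 ± 1.22 CPM with Dox and 9.11 ± 0.794 CPM with vehicle (SD, n = 3 each). Mab21l1 shares 981 exonic bases with Nbea and Ccdc39 shares 1256 with Ttc14, both on the other strand.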

How the data were processed

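The authors deposited whole-number counts per gene symbol for 6 libraries, not normalized, and a table of Dox over vehicle whose columns, per the file headers, are a signal (mean of normalized counts), log2 fold changes with errors, a test score, and p-values with their adjusted form. The submitters' processing notes list, with no role or order, GRCm38, DESeq2, StringTie 1.3.3, HISAT2 2.1.0 and FastQC 0.11.3. Which annotation was used, whether counting was stranded and how multiply matching reads were handled is not given in the sources used here.

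Counts as deposited were filtered with filterByExpr (18067 of 29493 genes kept), scaled by TMM, and tested by edgeR 4.0.16's quasi-likelihood test (limma 3.58.1, R 4.3.3) across all genes, with no covariate. A gene was called at a Benjamini-Hochberg adjusted p under 0.05. The SE of a log2 fold change was obtained by dividing it by the root of its F statistic. All 9 family genes with a row passed the filter. The fit was tested on simulated data. With 3 libraries against 3 an exact permutation test of 1 gene cannot go below 0.1, so none was run. Lengths, positions and exonic overlaps (at least 50 bases) came from GENCODE M21 on GRCm38, in which 27399 symbols matched 1 gene and which may differ from the authors' annotation. Promoters came from RefSeq.

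The members and all gene lists were chosen with earlier results of these data known. The rule for other named genes took, from each list, the called members with the lowest p (at most 3), neighbours within 2000 bases or sharing exons, the most abundant marker, and the 5 genes most like Tctn2 with a mean of at least 5 CPM. Predicted and clone-based gene names were left out when these 5 were chosen. Within a group, libraries varied beyond counting noise (12.1 to 15.1 for chi-square over its degrees of freedom). Same-numbered libraries did not deviate together (correlations 0.039, 0.044 and -0.075 over 14635 genes), so numbers were not taken as pairs. Some genes of these lists are not reported here by name.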

Additional observations from a re-analysis of the deposited data

How the results depend on the processing

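The family's direction did not depend on the settings tried. All 9 genes stayed higher with Dox under 16 alternatives, and 9 were called with DESeq2 size factors, upper-quartile scaling, the DESeq2 Wald test, limma-voom, no filter, a filter at a mean of 5 CPM and offsets for GC content or transcript length. With an adjusted p under 0.01, 8 were called. Leaving out each library gave 8 to 9 calls and a median log2 fold change of 0.67 to 0.93, against 0.76. The median is the value of Tmem216, the middle gene, whose own range was the same. The lost call was Tmem216. Upper-quartile scaling moved the median of all genes by 0.093 on the log2 scale and that of the family to 0.85. Over the 6 members sharing under 50 exonic bases with another gene, a choice made after seeing the data, the median was 1.21, with Tctn1, Tmem67 and Tmem216 left out.

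The fit with the replicate number as a block gave 9 calls and a median of 0.75, with 4602 genes higher and 5097 lower, against 4687 and 5203. Of the other transition zone genes, 3 fell under upper-quartile scaling and 3 with an adjusted p under 0.01, against 6, and 2 Hedgehog genes rose under upper-quartile scaling and with the GC or length offset, against 1. Rbm12b2, at 0.0070, was -0.047 with the GC offset and ran from -0.035 to 0.047 when libraries were left out. The causes were not tested. Rfx5 was not called under upper-quartile scaling, without a filter, with the block or with the length offset. Depth limits Foxj1 and other genes with few counts, which were not tested.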
